A study of Homo sapiens with 18 samples.

Results

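The RNA helicases of the DEAD-box (DDX) and DEAH-box (DHX) families were examined as hosts of RNA peaks of MYC, a DNA-binding transcription factor that works as a dimer with MAX. The members were all protein-coding genes of the RefSeq annotation whose symbol is DDX or DHX followed by a number, with or without a letter. This gave 54 genes, 38 DDX and 16 DHX, out of 20056 protein-coding genes. Membership went by symbol alone, and neither the motif nor the RNA helicase activity of each protein was checked. The assay was eCLIP (enhanced crosslinking and immunoprecipitation), in which ultraviolet light joins protein to RNA and the RNA that is precipitated with the protein is read by sequencing. All libraries came from U2OS, an osteosarcoma cell line of human origin, with the endogenous MYC knocked out and FLAG-tagged MYC placed under a doxycycline-inducible (Tet-On) system. The labels do not say whether each line is a clone or which residues the mutants named 3A and 7A change. For each of the 3A, 7A and wild-type alleles there were 2 anti-FLAG precipitates and 1 input library after 24 h with doxycycline at 1 µg/mL, and as many after 24 h with phosphate-buffered saline in its place, 18 libraries in all. The values come from 3 peak lists, 1 for the doxycycline-treated precipitates of each allele, with 103 peaks for 3A, 88 for 7A and 2149 for wild type. The lists carry no values per replicate, peak lists of saline-treated cells were not analysed here, and neither depth nor RNA abundance is known, so shares of genes are given without a test and all intervals cover counting error over genes only.

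DEAD-box and DEAH-box proteins use ATP to unwind short RNA duplexes or to strip proteins from RNA. They are named after a stretch of amino acids in the ATP-binding motif. Different members act in nearly every step of RNA life: splicing and export of messenger RNA, assembly of ribosomes in the nucleolus, translation, storage and decay, and sensing of viral RNA. Growth and ribosome production are processes for which MYC is known as a regulator of transcription.

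Peaks of the mutants lay in 1 DDX or DHX gene at most, and those of wild-type MYC in 12. The 3A list had no peak in any of the 54 genes, where 0.359% of all protein-coding genes had one, and a count of 0 allows a share of up to 5.56% (3 counts of 54; the upper end of the exact 95% interval is 6.60%). The 7A list had a peak in 1 of the 54 (1.85%), DHX37, where 0.269% of all protein-coding genes had one. The wild-type list had peaks in 12 of the 54 (22.2%, exact 95% binomial interval 12.0 to 35.6), where 6.78% of all protein-coding genes had a peak, and these 12 genes held 18 peaks. With so few mutant peaks anywhere, 0 and 1 of 54 are counts that say nothing particular about helicase genes. The helicase genes had a median span of 30022 bp, and all protein-coding genes one of 24092 bp. The members with a wild-type peak had a median span of 25470 bp, and the members without one 33153 bp.

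The order of the DDX and DHX families by their share of genes with a wild-type peak depended on which peaks were kept. Of 38 DDX genes 9 had a wild-type peak (23.7%, exact 95% interval 11.4 to 40.2), and of 16 DHX genes 3 had one (18.8%, exact 95% interval 4.05 to 45.6). The intervals overlap widely, and the difference was not tested. With wild-type peaks at or over the median fold enrichment alone, 5 of 38 DDX genes (13.2%) and 3 of 16 DHX genes (18.8%) had one, which turns the order. Among all protein-coding genes, 6.78% had a wild-type peak of any fold enrichment, and 3.94% had one at or over the median. The 13 DDX peaks had a median fold enrichment of 11.2, and the 5 DHX peaks one of 10.0. Fold enrichment is the authors' value for each peak over a control that the sources used here do not name, and is read only within its own list.

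Helicases of ribosome assembly made up 8 of the 12 genes with a wild-type peak. Of 16 members listed for ribosome biogenesis, 8 had a peak (50.0%, exact 95% interval 24.7 to 75.3). They were DDX10, DDX18, DDX21, DDX51, DDX54, DDX56, DHX33 and DHX37. Of 16 members listed for splicing and messenger RNA export, 3 had a peak (18.8%, exact 95% interval 4.05 to 45.6), namely DDX5, DDX17 and DHX15. The last gene, DDX20, was in none of the role lists. No wild-type peak lay in the 10 members listed for translation, decay and storage. Nor did one lie in the 2 for mitochondrial RNA, the 3 for innate sensing or the 3 for the germ line. For the 10, a count of 0 allows up to 30.0% by the same 3 counts and the exact interval ends at 30.8%. Over all protein-coding genes 6.78% had a wild-type peak, so counts of 0 in lists this small are near the background. EIF4A1 and UPF1, which act in translation and decay but have other names, did have wild-type peaks. The role lists were drawn up with earlier results of these data known, so these counts are a description. Whether the members without a peak are transcribed in these cells was not measured.

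**Figure D1:**
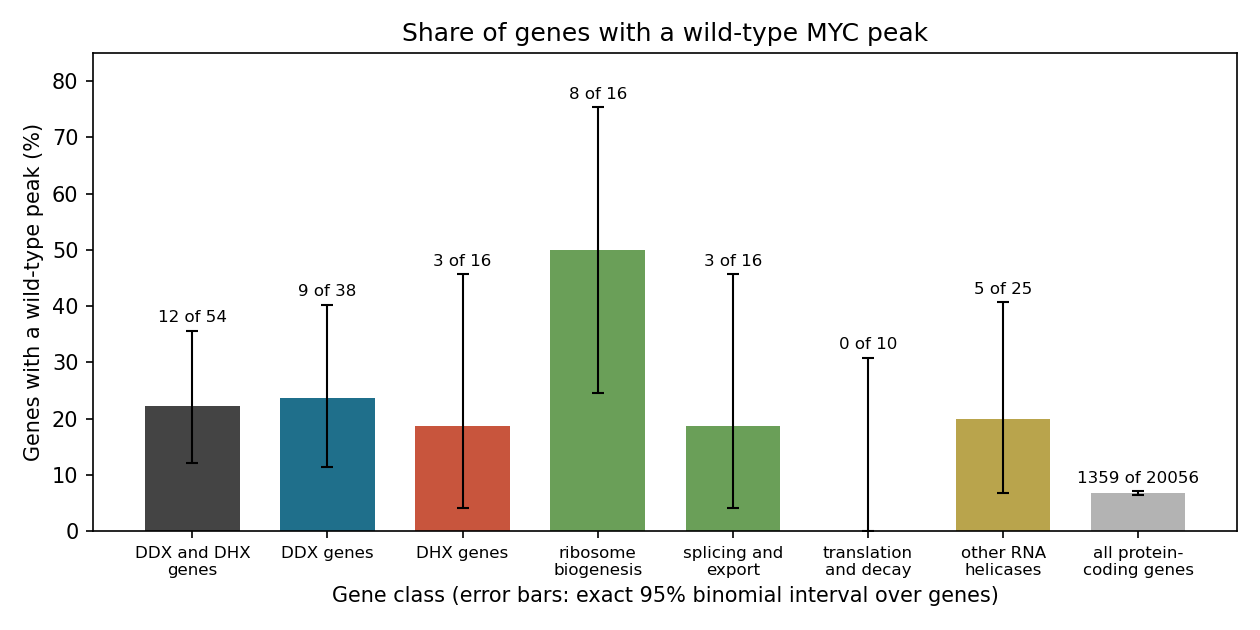
Percent of genes with a wild-type MYC peak on the vertical axis, for the helicase genes, both families, 3 role lists, other RNA helicases and all protein-coding genes. Bars are shares, error bars are exact 95% binomial intervals over genes, and the counts stand above. The ribosome biogenesis list is at 50.0%, the translation and decay list at 0, and all protein-coding genes are at 6.78%.

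Among ribosome assembly helicases DDX56 had the strongest peak. DDX56 is a nucleolar helicase of the assembly of the large ribosomal subunit. Its single peak (chr7:44573547-44573739, hg38, minus strand) had a fold enrichment of 22.8 with a −log10 q of 44.4, and ranked 51 of 2149 in the wild-type list by fold enrichment. The summit lay 255 bp from the annotated gene start. The next member peak by this rank, of DDX21, was at 189.

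DDX21, a nucleolar helicase that acts in ribosomal RNA transcription and processing, had the most peaks, 4. Both peaks at its start (chr10:68956192-68956339 and chr10:68956404-68956721, plus strand) had fold enrichments of 16.9 and 12.5, with summits 95 and 280 bp from the gene start. The other two lay 15841 and 21462 bp inside the gene and had fold enrichments of 10.3 and 12.5. All 4 were thus above the list median of 8.11. Among the 1359 protein-coding genes with a wild-type peak, 76 (5.59%) had 4 or more. DDX50, the close paralog of DDX21 whose gene ends 9322 bp before DDX21 begins on the same strand, had no peak in any list.

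DDX10, DDX18 and DDX54 had a single peak each, with very similar values. All are nucleolar helicases whose yeast counterparts act in ribosome assembly. The DDX10 peak (chr11:108665093-108665235, plus strand) had a fold enrichment of 11.5 with a −log10 q of 18.1. The DDX18 peak (chr2:117814737-117814879, plus strand) had 11.2 and 16.8. The DDX54 peak (chr12:113185278-113185416, minus strand) had 11.3 and 16.8. Their widths were 143, 143 and 139 bp. Their summits lay 101, 120 and 120 bp from the gene start, although the DDX10 gene is 275859 bp long and those of DDX18 and DDX54 are 17687 and 28306 bp.

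DDX51, whose product is needed for maturation of the large-subunit ribosomal RNA, had a weaker peak (chr12:132144084-132144271, minus strand) with a fold enrichment of 6.28 with a −log10 q of 10.2. Its summit was 108 bp from the start. The gene lies head to head with NOC4L, which encodes a factor of small-subunit assembly, and 137 bp separate their spans. NOC4L had a wild-type peak of its own on the opposite strand (chr12:132144510-132144630, plus strand), with a fold enrichment of 7.03, a −log10 q of 12.9 and a summit 94 bp from its start. Each of these peaks was on the strand of the gene it lay in.

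Of the DEAH-box members of ribosome assembly, DHX33, a nucleolar helicase, had a peak (chr17:5468573-5468778, minus strand) with a fold enrichment of 15.0 and its summit 240 bp from the start. DHX37, which releases a small nucleolar RNA from the precursor of the small subunit, had a pair of wild-type peaks. The first (chr12:124988917-124989058, minus strand) lay at the start, 143 bp in, with a fold enrichment of 10.0. The second (chr12:124947078-124947462, minus strand) had its summit 486 bp before the end of the gene, with a fold enrichment of 6.84 and the lowest −log10 q of the member peaks, 6.13. It was the only one of the 18 in the last 5th of its gene.

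Sequence around the start was available in RefSeq windows of GRCh38.p14 that run from 250 bases before a gene start to 50 bases from it, for 49 of the 54 members and 10 of the 12 with a wild-type peak. Most member peaks begin beyond these windows. The first DDX21 window and the DDX10 window reach into the peak at the start, and so does the NOC4L window at the shared start region with DDX51. They are shown because they hold the first bases of RNA under a peak, which are in capitals.
DDX21, chr10:68955920-68956219, plus strand: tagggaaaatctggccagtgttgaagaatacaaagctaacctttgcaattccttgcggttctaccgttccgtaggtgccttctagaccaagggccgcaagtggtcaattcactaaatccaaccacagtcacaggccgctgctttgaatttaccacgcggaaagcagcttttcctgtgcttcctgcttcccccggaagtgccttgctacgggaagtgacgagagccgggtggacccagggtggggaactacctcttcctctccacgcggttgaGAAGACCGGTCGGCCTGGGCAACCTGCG
DDX10, chr11:108664819-108665118, plus strand: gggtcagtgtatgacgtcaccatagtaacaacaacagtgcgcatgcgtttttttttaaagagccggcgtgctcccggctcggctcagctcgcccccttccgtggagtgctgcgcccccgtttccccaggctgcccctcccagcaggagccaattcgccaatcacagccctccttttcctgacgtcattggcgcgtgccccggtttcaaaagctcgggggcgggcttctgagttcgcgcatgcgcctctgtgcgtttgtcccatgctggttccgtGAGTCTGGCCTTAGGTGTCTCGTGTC
NOC4L, chr12:132144207-132144506, plus strand, with DDX51 running the other way: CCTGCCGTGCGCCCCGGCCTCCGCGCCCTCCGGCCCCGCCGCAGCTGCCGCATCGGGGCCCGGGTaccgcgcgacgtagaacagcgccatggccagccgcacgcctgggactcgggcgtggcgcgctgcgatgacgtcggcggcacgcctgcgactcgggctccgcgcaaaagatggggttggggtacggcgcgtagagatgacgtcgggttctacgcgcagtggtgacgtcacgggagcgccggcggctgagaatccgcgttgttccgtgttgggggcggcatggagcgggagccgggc
The capitals cover 28 bases of the first DDX21 peak, 26 of the DDX10 peak and 65 of the DDX51 peak. In the NOC4L line the RNA of DDX51 is the reverse complement of the capitals.

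Among the splicing helicases, DDX5 combined a low fold enrichment with a high −log10 q. DDX5 and DDX17 are close paralogs that act in splicing, transcription and microRNA processing. DDX5 had a pair of peaks (chr17:64506103-64506232 and chr17:64503430-64503566, minus strand) with fold enrichments of 7.26 and 6.68, below the list median. The first of them nevertheless had a −log10 q of 50.9, the highest of any member peak and rank 226 of the list, and the second had 30.6. Their summits lay 684 and 3393 bp from the start of the gene span. By that start, DDX5 was the only gene of the 12 without a peak within 500 bp. DDX5 also has annotated starts inside its span, and distances from those were not measured. The DDX17 peak (chr22:38506032-38506224, minus strand) had a fold enrichment of 5.34 with a −log10 q of 19.9, and its summit lay 199 bp from the start.

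DHX15, a helicase that takes spent spliceosomes apart, was the only one of the 12 whose strongest peak by fold enrichment was away from the start while a second lay at it. The inner peak (chr4:24576204-24576458, minus strand), 8171 bp from the start, had a fold enrichment of 15.2. The peak at the start (chr4:24584372-24584497, minus strand), with its summit 113 bp in, had 4.49, the lowest of the 18. DDX20, a subunit of the SMN complex that assembles small nuclear ribonucleoproteins, had a peak (chr1:111755983-111756086, plus strand) of 8.04-fold enrichment with a −log10 q of 7.69 and a summit 163 bp from the start.

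**Figure D2:**
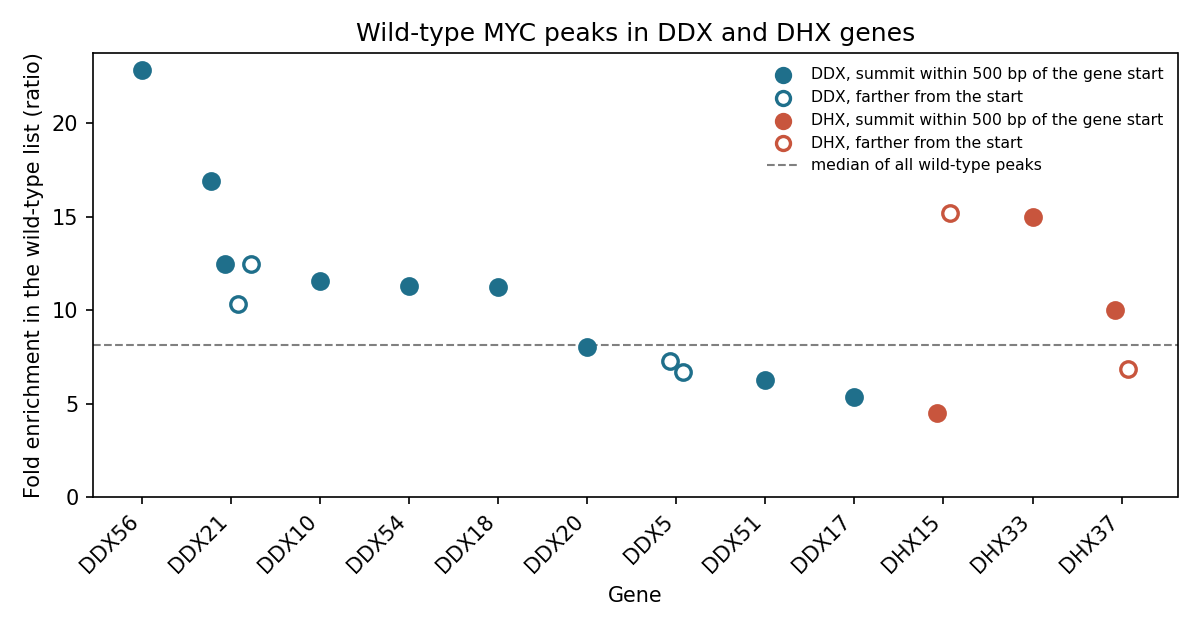
Fold enrichment (a ratio, the authors' value) of each of the 18 wild-type peaks in DDX and DHX genes, by gene. Filled points have a summit within 500 bp of the gene start, open points lie farther in, and the dashed line is the median of all 2149 wild-type peaks, 8.11. DDX56 is highest at 22.8 and the start peak of DHX15 lowest at 4.49.

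Over the 18 member peaks the median fold enrichment was 10.8, with a range of 4.49 to 22.8, and 11 were at or above the list median. Over all 1980 wild-type peaks in protein-coding genes the median was 8.09. The median −log10 q was 18.8 for member peaks and 17.4 for all peaks in protein-coding genes. The median widths were 143 and 167 bp. Of the 12 member genes, 4 had 2 or more wild-type peaks (33.3%), and 29.6% of all 1359 protein-coding genes with a wild-type peak did.

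Most member peaks lay at gene starts. Summits of 12 of the 18 (66.7%) were within 500 bp of the annotated start of the gene, and 870 of 2097 gene and peak pairs over all protein-coding genes were (41.5%). These 12 summits fell between 95 and 280 bp inside the gene, and none was upstream of it. A peak had to share at least 1 bp with the gene span, so this rule left little room for upstream summits. Of the 12 genes, 11 had a peak with its summit within 500 bp of the start (91.7%), and 836 of the 1359 (61.5%) had one. The first 5th of the gene held 14 of the 18 member summits (77.8%) and 50.3% of all pairs, and the last 5th held 1 (5.56%) and 21.3%. By family, 9 of 13 DDX peaks and 3 of 5 DHX peaks were within 500 bp of the start. The 6 peaks farther in belonged to DDX5, DDX21, DHX15 and DHX37. Their median fold enrichment was 8.79, and that of the 12 at the start was 11.3. The median −log10 q had the opposite order, 21.4 for the 6 farther in and 17.4 for the 12 at the start. Exons were not given, so no peak could be called exonic or intronic. The start was the outer edge of the gene span, and other annotated starts inside a gene were not used. The direction of a gene was taken from the RefSeq windows, and for DDX18 and DHX33 from the strand of the peak.

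**Figure D3:**
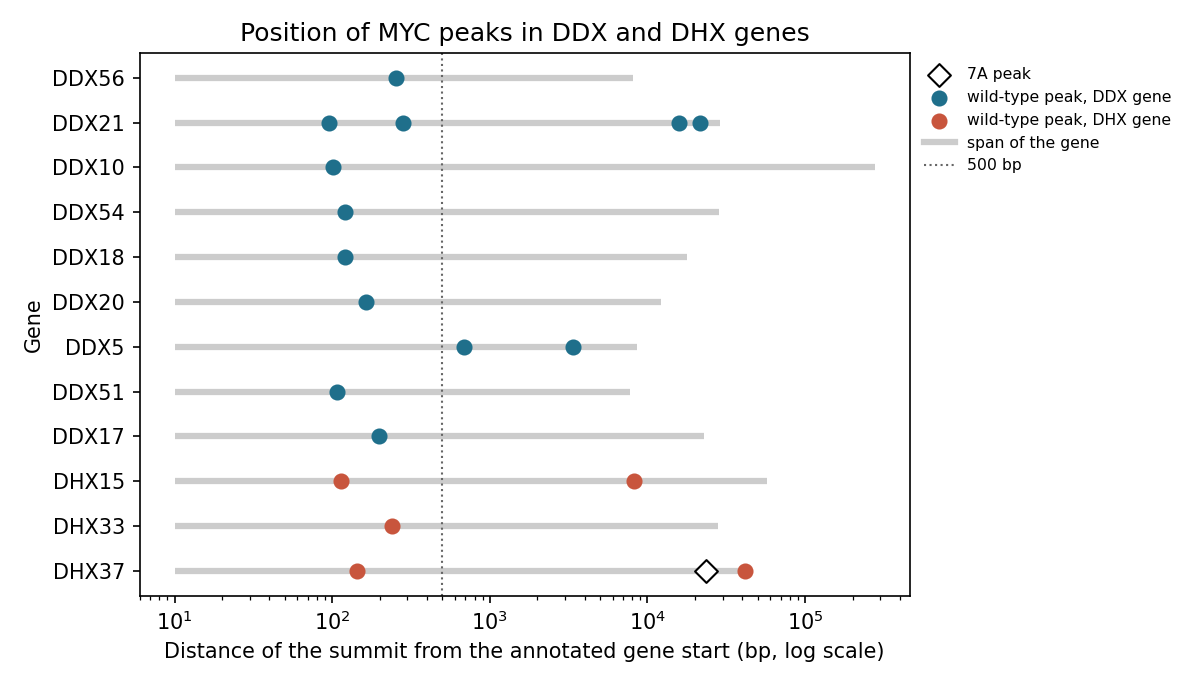
Distance of peak summits from the annotated gene start (bp, log scale) in the 12 genes with a peak. Dots are wild-type peaks, the diamond is the 7A peak in DHX37, and grey bars run from 10 bp to the end of the gene. The dots left of the dotted line at 500 bp fall between 95 and 280 bp in 11 genes, DDX5 being the exception. The start is the outer edge of the gene span, and other annotated starts, which DDX5 has, were not used.

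The hexamer CACGTG, the DNA site known for MYC with its partner MAX, was searched for in the same windows. It reads the same on both strands. It was found for 4 of the 10 genes with a wild-type peak and a window, for 6 of the 39 members without a peak (15.4%), for 189 of 1141 protein-coding genes with a wild-type peak (16.6%) and for 1727 of all 15843 with a window (10.9%). Counted by window, it was in 4 of 13 windows of members with a peak (30.8%), 6 of 53 of members without one (11.3%), 197 of 1567 of all protein-coding genes with a wild-type peak (12.6%) and 8.34% of all windows. Genes with several annotated starts have several windows. DDX21 had 2, DDX5 had 3, and DDX54 and DHX37 had 1. The 4 matches, with the motif in capitals, are shown with up to 12 bases on each side.
DDX21, chr10:68956604-68956633, plus strand: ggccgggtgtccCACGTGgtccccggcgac
DDX5, chr17:64506651-64506680, minus strand: gggtggtacagcCACGTGacaacgccaggc
DDX54, chr12:113185522-113185551, minus strand: ctcagcggaggtCACGTGgtcaccgcacct
DHX37, chr12:124989082-124989102, minus strand: ggtctgggaaccCACGTGggc
The DDX21 match began 446 bp inside the gene and lay under its second peak. The DDX5 and DHX37 matches began 198 and 41 bp inside the gene and the DDX54 match 61 bp upstream of it, and none of these 3 lay under a peak. A match is a stretch of letters in DNA, and binding to it was not measured.

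The mutants had no peak at any of these positions. Of the 18 wild-type member peaks, 0 were met by a 3A peak and 0 by a 7A peak, sharing at least 1 bp. A count of 0 of 18 allows up to 16.7% by 3 counts, and the exact 95% interval ends at 18.5%. Over the whole wild-type list, 3A peaks met 76 of 2149 (3.54%) and 7A peaks met 30 (1.40%), so a count of 0 among 18 is near the background. None came within 500 bp either.

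The single mutant peak in a member gene was the 7A peak in DHX37 (chr12:124965578-124965677). It had a width of 100 bp, a fold enrichment of 5.11 with a −log10 q of 10.1, and ranked 68 of 88 in the 7A list by fold enrichment. Its summit lay 23528 bp from the gene start, 55.6% of the way along. The summits of the wild-type peaks in the same gene were 18291 and 23385 bp away. Over the whole 7A list, 30 of 88 peaks (34.1%) met a wild-type peak and 32 (36.4%) met a 3A peak. Meeting neither is thus nothing particular to the DHX37 peak. That 7A peak was on the plus strand, opposite to DHX37, where both wild-type peaks were on the strand of the gene. Among peaks that lie in a single annotated gene, protein-coding and of known strand, 2 of 50 7A peaks (4%) were on the opposite strand, 2 of 64 3A peaks (3.13%) and 1 of 1410 wild-type peaks (0.0709%). The other 7A peak of this kind was in AUTS2. Over all pairs of a protein-coding gene and a peak, a peak in overlapping genes counts for each of them. Genes of unknown strand are included there and count as on the strand of their peak. In those pairs the opposite strand held 4.35% for 7A, 2.13% for 3A and 4.53% for wild type (95 of 2097). Wild type was not the lowest. These shares were not tested between lists.

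RNA helicases with other names were counted beside the members. Of 25 such genes, 5 had a wild-type peak (20.0%, exact 95% interval 6.83 to 40.7), where 6.78% of all protein-coding genes had one. They were EIF4A1, the DEAD-box helicase of translation initiation, EIF4A3 of the exon junction complex, SNRNP200 of the spliceosome, SUPV3L1 of mitochondrial RNA decay and UPF1 of nonsense-mediated decay. EIF4A1 had 4 peaks, with authors' ratios from 2.17 to 9.96. The only peak of UPF1 was weak, with a fold enrichment of 3.75, rank 1997 of 2149, and a −log10 q of 4.90. It falls below the −log10 q of 5 and the median fold enrichment that served as alternative settings. All 5 genes had a peak within 500 bp of the start, with summits between 117 and 251 bp. Of all protein-coding genes with a wild-type peak, 61.5% had one there. EIF4A2 had no peak. SNRNP200 was the only one with a mutant peak (1 of 25 for 3A, 4%), where 0.359% of all protein-coding genes had a 3A peak. Its 3A peak (chr2:96305341-96305523, minus strand) had a fold enrichment of 9.87 within the 3A list, and shared its position with a wild-type peak (chr2:96305343-96305488, minus strand) of 10.7 within the wild-type list. Over the whole 3A list, 81 of 103 peaks (78.6%) met a wild-type peak, so this overlap is the usual case for a 3A peak.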

How the data were processed

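MYC eCLIP was analysed from 3 deposited peak lists, 1 per allele, of doxycycline-treated U2OS cells. The deposited lists are in narrowPeak layout. The build hg38 and the tools MACS2, BWA and cutadapt are named per the submitters' processing notes. For their versions and roles, the control, the cutoff and any pooling of replicates, no source used here gives a statement. The authors gave each peak a fold enrichment, a ratio, and a −log10 q, whose lowest value was 2.34 for 3A, 2.90 for 7A and 2.04 for wild type. The deposited score is the −log10 q on another scale and was not used.

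Peaks were assigned here to every RefSeq gene (GRCh38.p14) whose span they shared at least 1 bp with, in 1-based coordinates. Strand came from RefSeq start windows, otherwise from the peak. Samples were grouped by their titles. All 25 names of the list of other helicases and all names of the role lists matched. Members, role lists and descriptions were chosen with earlier results of these data known. All members with a peak are named, as are all other helicases with one. No test was made, since each allele has 1 list, and depth per sample is unknown. The alternatives were peaks with −log10 q from 5 up, peaks from the median fold enrichment up, other overlap rules, strand, and other start windows of 250 and 1000 bp. The interval rules were tested on simulated intervals. Python 3.11.15, pandas 2.3.3 and SciPy 1.17.1 were used.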

Additional observations from a re-analysis of the deposited data

How the results depend on the processing

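Of 64 alternative values for 16 results, 59 equalled the reported value or differed from it by no more than 1.5 times, and 1 turned its direction. Many of the 59 were 0 beside a reported 0, which a stricter filter cannot move. The fall of wild-type member genes from 12 to 8 was also within 1.5 times, so the 59 is no measure of stability. Peaks from the median fold enrichment of each list upward, fewer by construction, left 0 genes for 7A (0 DHX) and 8 for wild type, of which 7 belonged to the ribosome biogenesis list. These 8 were 5 of 38 DDX and 3 of 16 DHX genes, so the difference of DDX minus DHX was -5.59 percentage points, where it was 4.93 with all peaks. The background share for wild type was then 3.94%. On the strand of the gene alone, 7A had 0 member genes, and wild type still had 12. Of these, DDX18 and DHX33 passed by construction, since their strand came from the peak. The background share for wild type, counted by the same rule, was 6.39%. Within 250 bp and 1000 bp of the start lay 10 and 13 of the wild-type summits. The alternatives for the ribosome biogenesis list were chosen after seeing the data. No paired analysis was possible because the lists hold no replicate numbers, nor could a replicate be omitted. Depth, control and RNA abundance are unknown, and the short mutant lists limit every comparison with them.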

Other observations

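Among 43 pseudogenes and non-coding genes named after DDX or DHX genes, none had a mutant peak and 2 had a wild-type peak (4.65%). Over all 39736 pseudogenes and non-coding genes of the annotation, 0.0327% had a 3A peak, 0.0377% a 7A peak and 0.725% a wild-type peak. DDX18P4, a pseudogene of DDX18, had a peak (chr5:98680308-98680412, plus strand) with a fold enrichment of 9.30 with a −log10 q of 12.3. DDX12P, a pseudogene related to DDX11, had a peak (chr12:9420839-9420938, minus strand) with a fold enrichment of 5.48 with a −log10 q of 6.80. DDX18 itself had a peak of 11.2 at its start, and DDX11 had none. Whether reads of a parent gene were placed at its copy was not tested.

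Chromosome 12 and chromosome 17 each carried 7 of the helicase genes. On chromosome 12, 3 of them had a wild-type peak (DDX51, DDX54 and DHX37), and on chromosome 17, 2 had one (DDX5 and DHX33). Chromosome 16 carried 4, none with a peak. Over all chromosomes, 6.78% of protein-coding genes had a wild-type peak. Shares of all genes by chromosome were not computed, so these small counts are a description only.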
